A study of Mus musculus with 62 samples.

Results

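Uroplakins and simple-epithelial keratins are among the gene products by which pathologists recognise the luminal, umbrella-cell state of the urothelium. The 10 genes described here are the 5 uroplakins Upk1a, Upk1b, Upk2, Upk3a and Upk3b and the 5 keratins Krt7, Krt8, Krt18, Krt19 and Krt20, found by their symbols in every deposited expression table, out of 37164 symbols in all. They were followed through 15 groups of libraries from mouse bladder tissue and from a mouse bladder cancer cell line.

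Uroplakins are membrane proteins that assemble into rigid plaques on the apical face of umbrella cells and keep urine out of the tissue. The tetraspanin Upk1a pairs with Upk2 and the tetraspanin Upk1b with Upk3a or Upk3b, and vesicles carry the assembled pairs to the surface. Keratin filaments are built from a type II chain and a type I chain; Krt7 and Krt8 are type II, and Krt18, Krt19 and Krt20 are type I, with Krt8 and Krt18 the classic pair and Krt20 restricted to umbrella cells in the normal bladder.

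The study gave rosiglitazone, which activates Pparg, together with the MEK inhibitor trametinib in basal bladder tumours and in a tumour cell line, and in the cell line also each drug alone. The 17 tissue libraries, labelled WT, came from tumours of the combination for 1 month (4 libraries) and the matching vehicle (3), from tumours of the combination for 5 days (4) and vehicle (3), and from bladders with no BBN (3), BBN being the nitrosamine carcinogen used to raise bladder tumours in mice. The names of the deposited comparisons mark the tumour groups of both times as 5MBBN, without spelling out the M. The vehicle was hydroxypropyl methylcellulose at 0.5%, Tween 80 at 0.2% and DMSO at 0.7% in water. The 45 libraries of BBN963, a single cell line labelled C57bl/6 WT, made up 2 experiments. The first had 5 libraries each of rosiglitazone, trametinib, the combination and DMSO at 72 h, and the second had the combination (4 at each time), all-trans retinoic acid (ATRA, 6 and 5) and DMSO (3 and 3) at 24 h and 72 h. Doses, ages and sexes are not given in the sources used here, nor is it stated whether libraries of a group are separate animals or cultures, so each p-value measures only the spread between these libraries.

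Some libraries stood apart, and the fold changes that rest on them are given with and without them. In the vehicle group of 1 month, replicate 2 had a basal urothelial marker sum of 1141220 normalised counts, against 251290 and 285630 in the other 2 vehicle libraries, and its fibroblast sum of 78980 lay below their 544545 and 487640. Replicate 2 of each 5-day group had low Upk1a and Upk2. The 72 h ATRA library of replicate 1 correlated with the 24 h ATRA libraries at r = 0.960 to 0.979 over 14014 genes and with the other 72 h ATRA libraries at 0.948 to 0.954. With the 24 h combination libraries it correlated at 0.955 to 0.965, also above its own group. The label of basal urothelial cells was carried by every library. In tissue the basal keratin Krt5 was at 7881 or more normalised counts in every library, but in BBN963 Krt5 did not pass 7.20 and Trp63, the basal transcription factor, did not pass 13.6, while Krt14 was at 1330 or more in the first experiment and the epithelial marker Epcam at 12902 or more. The tissue libraries also held fibroblast, leukocyte and mesothelial RNA, so that fewer cells of a type and less RNA per cell cannot be told apart there.

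In tumours, no uroplakin passed the test under the combination at either time. At 1 month 2 of the 10 genes were called higher, both keratins, and none lower, where 23.8% of all 18762 genes tested were called, 10.1% higher and 13.7% lower. At 5 days 2 of 10 were called higher, again both keratins, and none lower, where 6.17% of 16891 genes were called, 0.699% higher and 5.48% lower. A gene was called at an adjusted p below 0.05 in limma's test on log2(normalised count + 1). Fold changes below are on that scale, with standard errors. Where groups are said not to overlap, the share of all genes without overlap was not counted. With so few libraries a lack of overlap describes the values and is no test.

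Upk3a, which forms a pair with Upk1b, had 99684, 92066, 115267 and 30259 normalised counts in tumours of 1 month on the combination, against 74343, 1107 and 73342 with vehicle. Upk1a had 108138, 72258, 99269 and 26088 with the combination, against 78256, 1279 and 72984 with vehicle. The treated and vehicle libraries overlapped for both genes, and vehicle replicate 2 was far below every other library. Upk2, the partner of Upk1a, had 15552, 13562, 16888 and 5876 with the combination, against 12924, 941 and 12172 with vehicle. The log2 fold changes were 2.05 ± 1.25 for Upk3a, 1.79 ± 1.22 for Upk1a and 1.18 ± 0.80 for Upk2, with adjusted p of 0.264, 0.321 and 0.317. Upk1b, the tetraspanin that Upk3a and Upk3b share, lay between 62066 and 71316 in all 4 treated libraries and at 71947, 13912 and 62399 with vehicle, for a log2 fold change of 0.73 ± 0.46. The median over the 5 uroplakins was 1.18 and that over all genes 0.04. Without vehicle replicate 2 the 5 fold changes lay between -0.17 and 0.03.

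**Figure D1:**
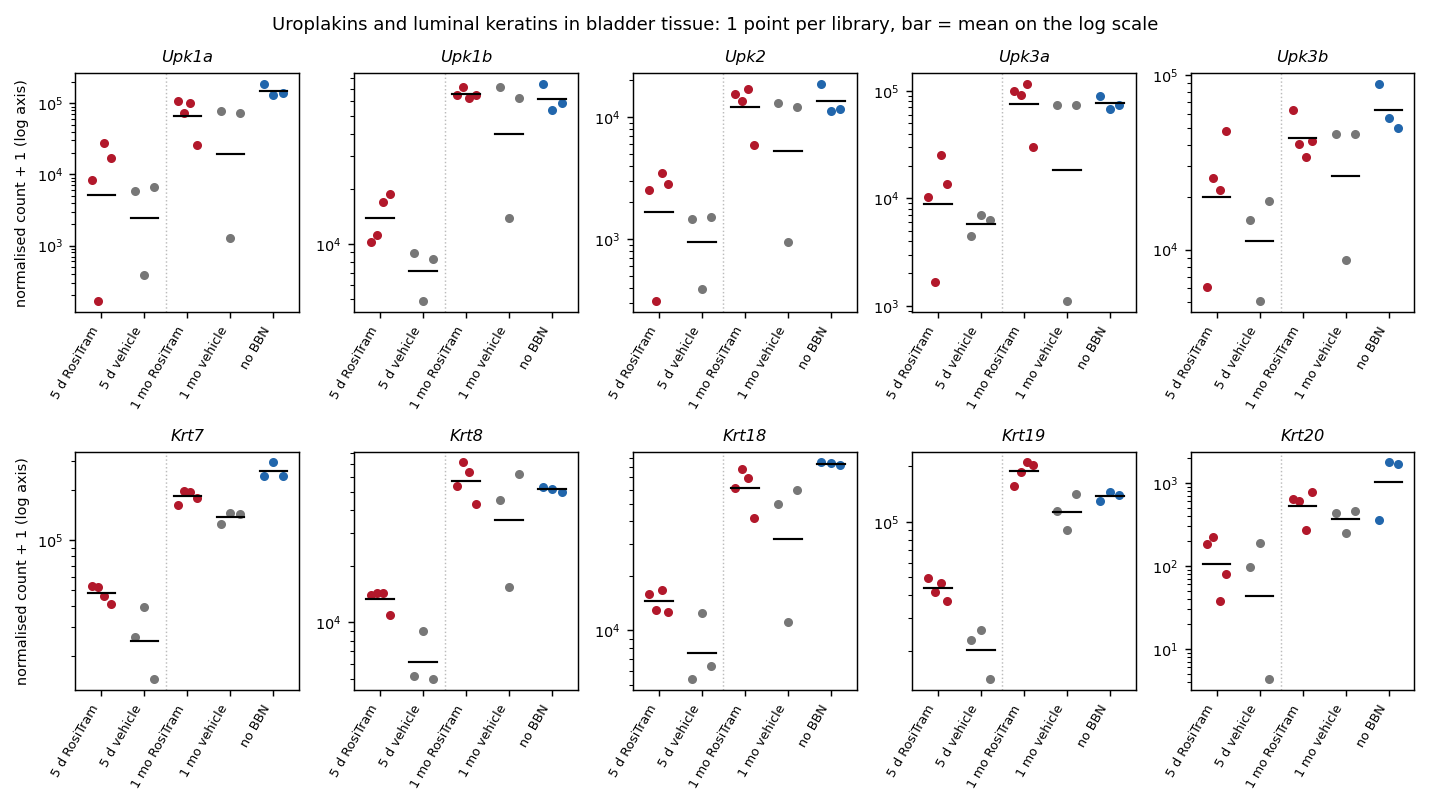
Normalised counts plus 1 on a log axis for the 10 genes in the tissue libraries, 1 point per library, with bars at the mean on the log scale; the dotted line separates tables that were normalised separately. In the 1-month vehicle group the uroplakins have 1 library far below the others (Upk3a at 1107, against 74343 and 73342), while the treated and vehicle libraries do not overlap for Krt7 and Krt19.

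Among keratins in the same tumours, Krt7 and Krt19 were less scattered than the uroplakins in the vehicle group, with SDs of 0.12 and 0.33 on the log2 scale, against 1.31 or more for each uroplakin, while Krt8 and Krt18 had 1.05 and 1.33 (n = 3). Krt19, a type I keratin of simple epithelia and urothelium, had 156752, 185037, 209912 and 203748 normalised counts on the combination at 1 month, against 114826, 90104 and 141640 with vehicle. All 4 treated libraries lay above all 3 vehicle libraries, and the log2 fold change was 0.72 ± 0.17 (adjusted p = 0.0121); it stayed called without vehicle replicate 2, at 0.56 (adjusted p = 0.0206). Krt7, a type II keratin of luminal urothelium, had 163484, 198042, 196720 and 181227 with the combination, against 125619, 146903 and 144547 with vehicle. The groups did not overlap, but the fold was smaller, at 0.41 ± 0.13 (adjusted p = 0.0449), and the call was lost (adjusted p up to 0.143) when any library but vehicle replicate 2 or treated replicate 1 was left out. Krt8 and Krt18, the pair of simple epithelia, had log2 fold changes of 0.70 ± 0.39 and 0.93 ± 0.49, not called, and 0.11 and 0.17 without vehicle replicate 2. Krt20, the umbrella-cell keratin, had 638, 604, 273 and 774 with the combination, against 429, 248 and 456 with vehicle, with overlap and a fold of 0.55 ± 0.57. In the authors' deposited table of this comparison, adjusted p was below 0.05 for the same 2 genes, at 0.0209 for Krt7 and 0.00833 for Krt19.

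Against bladder with no BBN, vehicle tumours of 1 month had 1 of the 10 genes called lower and none higher, where 26.4% of genes were called, 15% higher and 11.4% lower. That gene was Krt7, at 125619, 146903 and 144547 normalised counts in vehicle tumours, against 245736, 295392 and 243039 with no BBN, a log2 fold change of -0.91 ± 0.14 (adjusted p = 0.0013) and -0.95 without vehicle replicate 2. Krt18 had 49734, 11102 and 59611 in vehicle tumours, against 84729, 83643 and 81876 with no BBN. These groups did not overlap, but the spread of the vehicle libraries left the fold of -1.38 ± 0.52 uncalled (adjusted p = 0.0775). It was called only when vehicle replicate 3 was left out (-1.83, adjusted p = 0.0317), and without vehicle replicate 2 it was -0.62 and not called. Upk1a and Upk3b also had no overlap, with folds of -2.96 ± 1.31 and -1.26 ± 0.56, not called, and -0.997 and -0.45 without vehicle replicate 2. Krt20 had 429, 248 and 456 in vehicle tumours, against 353, 1772 and 1689 with no BBN, where replicate 1 was low; its fold of -1.48 ± 0.61 was called only without that library (adjusted p = 0.00901). In treated tumours of 1 month against no BBN, 0 of 10 genes were called by limma, with 2 of 10 at an unadjusted p below 0.05 (Krt7 and Krt19, at -0.50 ± 0.13 and 0.45 ± 0.17), where 4.01% of genes were called, 2.57% higher and 1.44% lower. Without vehicle replicate 2 in the fit, Krt7 was called lower there too (adjusted p = 0.0332). For Krt19 the treated libraries, 156752 or more, lay above the no-BBN libraries, 144488 or less, while for Krt7 they lay below them.

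After 5 days the called genes were Krt8 and Krt19. Krt8 had 13990, 14366, 14418 and 10964 normalised counts with the combination, against 5138, 9043 and 4958 with vehicle, a log2 fold change of 1.12 ± 0.24 (adjusted p = 0.0352). Krt19 had 49533, 41642, 46820 and 37102 with the combination, against 22910, 25800 and 13988 with vehicle, at 1.11 ± 0.24 (adjusted p = 0.0377). In both the groups did not overlap, and both calls were lost when vehicle replicate 1 or 3 or treated replicate 1, 2 or 3 was left out (adjusted p up to 0.129 for Krt8 and 0.105 for Krt19). Krt18 and Krt7 likewise had no overlap, at 0.94 ± 0.29 and 0.96 ± 0.32, without being called (adjusted p = 0.114 and 0.136), though both were called without vehicle replicate 2, at 1.30. Upk1b had 10316, 11180, 16956 and 18815 with the combination, against 8972, 4894 and 8242 with vehicle. Every treated library was above every vehicle library, with a fold of 0.96 ± 0.30 (adjusted p = 0.113), and the authors' deposited table gives it an adjusted p of 0.0387. Without replicate 2 of both groups, Krt8 and Krt18 were called (1.37 and 1.36) and Krt19 was not (1.30, adjusted p = 0.0681).

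The other uroplakins overlapped between the 5-day groups. Upk1a had 8411, 165, 27350 and 17134 normalised counts with the combination, against 5939, 384 and 6567 with vehicle, so that replicate 2 of each group was lowest. Upk2 followed the same order, at 2516, 310, 3469 and 2834 with the combination, against 1470, 387 and 1506 with vehicle. Upk3a was lowest in treated replicate 2, at 1671, but in vehicle replicate 2 it was the highest of the 3 vehicle libraries, at 7055. Their folds were 1.04 ± 1.87, 0.81 ± 0.91 and 0.59 ± 0.83, and their intervals at 95% reached from -3.33, -1.31 and -1.35 to 5.40, 2.93 and 2.53. Krt20 had 184, 224, 36.6 and 78.1 with the combination, against 94.99, 190 and 3.28 with vehicle, with overlap and a fold of 1.30 ± 1.32. The difference of the treatment effect between 1 month and 5 days was called for 0 of 10 genes by limma (0.00534% of all genes), with 0 of the 10 at an unadjusted p below 0.05; these tables were normalised separately, and only the effects within each were compared.

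Upk3b followed the mesothelial markers in tissue. Besides umbrella cells it is made by mesothelium, the sheet that covers the outside of the bladder. At 5 days it had 6125, 25713, 22011 and 47721 normalised counts with the combination, against 14718, 5076 and 19083 with vehicle. The summed mesothelial markers Msln, Lrrn4, Wt1 and Gpm6a were at 8735, 30025, 25493 and 68561 in the same treated libraries, against 19113, 6040 and 27793 with vehicle. The order of the 7 libraries was the same for both except that vehicle replicate 3 and treated replicate 3 traded places. The log2 level of Upk3b varied with an SD of 1.15 over the 7 libraries, and its difference from the mean log2 level of the 4 mesothelial markers with an SD of 0.15. Its difference from the mean of Upk1a, Upk2 and Upk3a varied with an SD of 1.84. For the other 4 uroplakins the SD of the difference from the mesothelial mean was 0.72 (Upk1b) to 2.60 (Upk1a). Without replicate 2 of both groups the 3 SDs of Upk3b were 1.07, 0.15 and 1.08, and that of the other 4 from the mesothelial mean was 0.79 to 1.22. In treated replicate 2 of 5 days, Upk3b was thus at 25713 while Upk1a was at 165. At 1 month Upk3b had 63542, 40269, 33918 and 41904 with the combination, against 46155, 8703 and 46105 with vehicle, and 88989, 56774 and 50034 with no BBN. The mesothelial sum was 96654, 81752, 43487 and 73662 with the combination, against 68452, 12351 and 70393 with vehicle, and 98975, 61632 and 59318 with no BBN, so that vehicle replicate 2 was lowest in both. In these 10 libraries the same 3 SDs for Upk3b were 0.89, 0.25 and 1.03, and 0.41, 0.27 and 0.55 without vehicle replicate 2. Upk3b did not stand alone there: Upk1b differed from the mesothelial mean with an SD of 0.32 and from the mean of Upk1a, Upk2 and Upk3a with 1.13 (0.32 and 0.59 without that library), and Upk2 with 0.67 and, against Upk1a and Upk3a, 0.79 (0.59 and 0.27 without it). The treated and vehicle libraries overlapped at both times, and Upk3b was called at neither, with folds of 0.84 ± 0.73 at 5 days and 0.72 ± 0.53 at 1 month. Msln is not particular to mesothelium in this study. In BBN963 cells of the first experiment the same 4 markers summed to 14936 to 16467 with DMSO and 47416 to 51619 with trametinib, nearly all of it Msln. The sum in tissue can thus hold RNA of tumour cells and can move with treatment. The part of mesothelial RNA in the Upk3b values was not tested further.

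**Figure D2:**
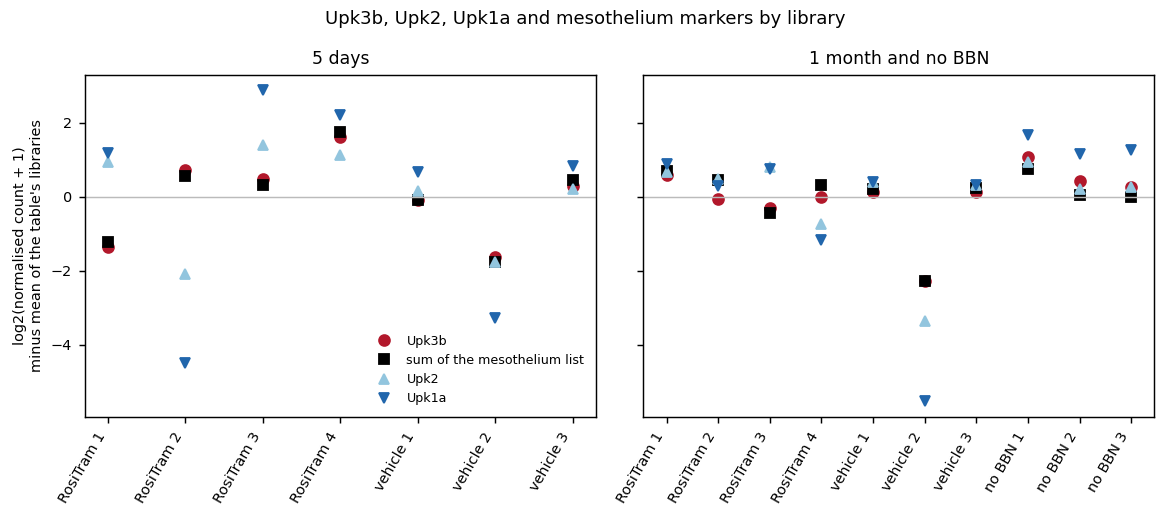
Log2 level of Upk3b (circles), the summed mesothelium list (squares), Upk2 and Upk1a (triangles) in each tissue library, as the difference from the mean over the libraries of its table. Circles and squares lie close together in all 7 libraries of 5 days (SD of the difference to the mean of the markers 0.15), while Upk1a and Upk2 drop in treated replicate 2 and Upk3b does not. The list includes Msln, which BBN963 cells also make.

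Other gene groups in the same tumours moved as follows, where 10.1% of all genes were called higher and 13.7% lower at 1 month, and 0.699% and 5.48% at 5 days. Of 13 tested transcription factors of luminal differentiation, 8 rose with the combination at 1 month, among them Rxra (1.33 ± 0.14), the partner of Pparg, Foxa1 (1.11 ± 0.13) and Tbx3 (1.26 ± 0.18), and none fell; at 5 days 0 of 13 were called by limma, with 5 at an unadjusted p below 0.05 and a median of 1.18 against 0.04 over all genes. Of 8 genes for transport of uroplakin vesicles, 2 rose at 1 month, Rab27b (1.19 ± 0.24) and Sytl2 (1.40 ± 0.37), and Rab8a fell by 0.955 ± 0.13. At 5 days 0 of these 8 were called by limma, with 3 at an unadjusted p below 0.05. Of 15 barrier and surface genes, 4 rose and 1 fell at 1 month, and 2 rose and 1 fell at 5 days. Leukocyte markers fell, 6 of 7 at 1 month and 4 of 7 at 5 days. Their sum was 24852 to 55429 normalised counts in treated tumours of 1 month, against 285044 to 475155 with vehicle and 67384 to 140059 with no BBN. At 5 days it was 33809 to 222801 with the combination, against 114707 to 304929 with vehicle, with overlap. Of 5 general epithelial markers 3 rose at 1 month, Grhl2 (1.43 ± 0.23), Esrp1 (1.15 ± 0.20) and Cdh1 (0.73 ± 0.15). The epithelial sum was 87311 to 110106 with the combination, against 60510 to 83579 with vehicle. At 5 days 0 of the 5 were called by limma, with 1 at an unadjusted p below 0.05, and the sums overlapped, at 12224 to 27802 with the combination, against 8521 to 21882 with vehicle. What part the share of epithelium, leukocytes and endothelium has in the keratin differences was not tested. The mesothelial, fibroblast, basal, smooth muscle and endothelial lists had 0 members called between treated and vehicle tumours by limma at either time, with 1 basal marker at an unadjusted p below 0.05 at 5 days, 1 endothelial marker at each time and 0 otherwise. The sum of the 4 endothelial markers at 5 days was nonetheless 1311 to 2976 in treated tumours, against 3751 to 4867 with vehicle, without overlap, and Pecam1 had a fold of -1.26 ± 0.34 (adjusted p = 0.0784). The smooth muscle sums overlapped, at 448 to 3027 with the combination, against 922 to 6192 with vehicle. Quantile scaling of the log2 values moved the median of all genes to 0.15 at 1 month and 0.14 at 5 days, in place of 0.04 at both, and the calls of all genes at 1 month were then 2730 higher and 2085 lower in place of 1889 and 2575; at 5 days they were 244 and 779 in place of 118 and 925, and Krt7 and Krt18 were then called higher too.

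In BBN963 cells the same genes split. Trametinib at 72 h raised Krt19, Upk2, Upk1a and Krt8 and lowered Krt18. The 5 called among 6 tested genes stand against 71.1% of all 14414 genes called, 35.8% higher and 35.3% lower, so that a called gene was the rule here, and the directions and sizes are what sets the members apart from each other. Upk1b, Upk3a, Upk3b and Krt20 had too few reads to be tested: Upk1b and Upk3a were listed at 0 in all 5 DMSO libraries, and no library of the first experiment passed 6.69 for any of the 4. The combination called the same 5 genes in the same directions, and Krt7 as lower besides, where 72.5% of genes were called, 36.3% higher and 36.2% lower. These comparisons share the 5 DMSO libraries.

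Krt19 had 34875, 36714, 37532, 37295 and 38760 normalised counts with trametinib, against 12624, 12388, 12081, 13887 and 11077 with DMSO. The treated libraries were all at least 34875 and the DMSO libraries at most 13887, for a log2 fold change of 1.58 ± 0.05 (adjusted p = 5.21e-12). Krt18 had 9282, 9087, 9284, 9148 and 9321 with trametinib, against 21857, 21528, 20390, 27295 and 21928 with DMSO. All trametinib libraries were below all DMSO libraries, with a fold of -1.29 ± 0.06 (adjusted p = 2.23e-10). Krt8, the filament partner of Krt18, had 32853, 32231, 31628, 33184 and 32401 with trametinib, against 26661, 26225, 24705, 31529 and 25828 with DMSO. It was higher by 0.27 ± 0.05 (adjusted p = 0.000475), and the groups did not overlap, though DMSO replicate 4 came close. The ratio of Krt8 to Krt18 in a library was thus 1.56 ± 0.03 log2 units above its DMSO mean with trametinib and 1.71 ± 0.03 with the combination, while the DMSO libraries varied by 0.03 (SD, n = 5 each). With rosiglitazone alone that ratio was -0.02 ± 0.02 from the DMSO mean.

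Upk2 had 82.2, 106, 105, 87.2 and 85.9 normalised counts with trametinib, against 32.1, 33.7, 33.9, 24.7 and 36.4 with DMSO. Upk1a, its partner, had 51.7, 71.8, 70.5, 79.5 and 60.7 with trametinib, against 29.4, 32.7, 26.5, 30.9 and 35.4 with DMSO. The groups did not overlap for either, and the log2 fold changes were 1.51 ± 0.15 (adjusted p = 3.27e-07) and 1.08 ± 0.16 (adjusted p = 2.14e-05). With the combination they were 1.48 ± 0.15 and 1.14 ± 0.14. Both are low in these cells: the same genes ran to 16888 and 108138 in treated tumours of another table, which has its own scale. Upk1b had 2.67, 0.915, 0, 4.80 and 3.73 with the combination, against 0 in all 5 DMSO libraries; the authors' deposited table gives it an adjusted p of 0.0347 and gives Upk3a none.

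**Figure D3:**
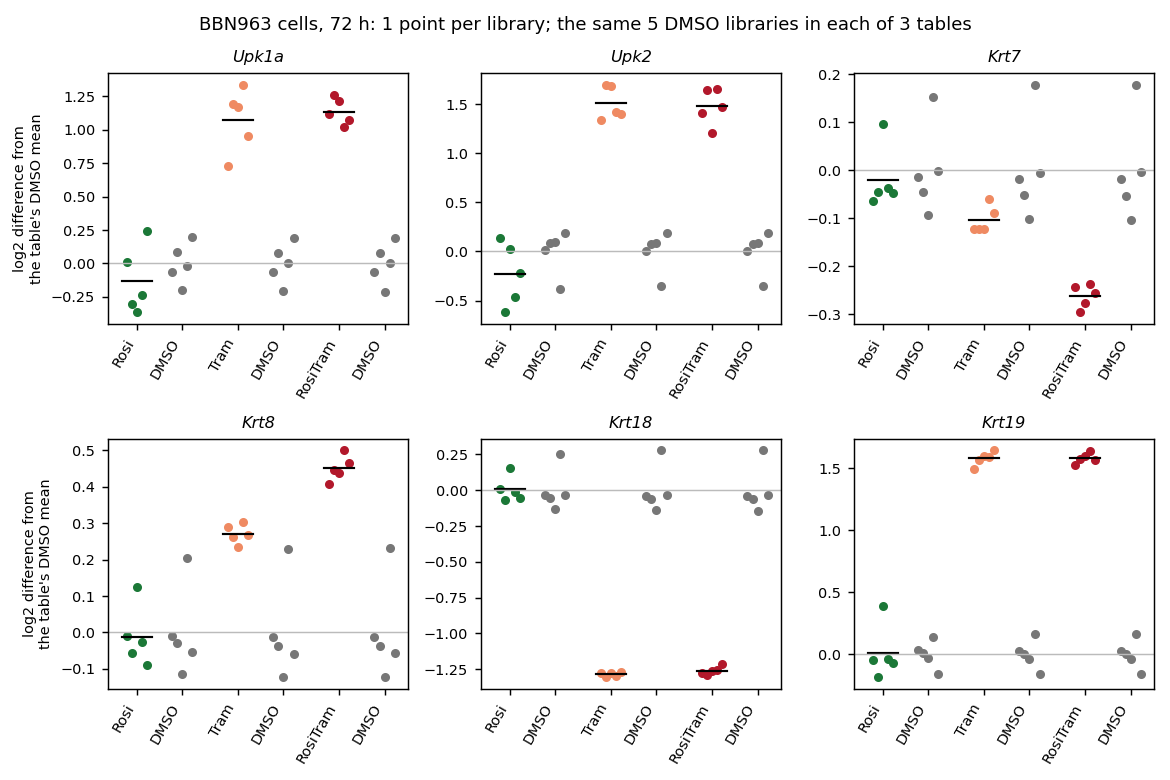
Log2 difference from the DMSO mean of the same table for the 6 tested genes in BBN963 cells at 72 h, 1 point per library, with bars at group means; the 5 DMSO libraries are the same in each of the 3 pairs. Trametinib and combination libraries lie above DMSO for Upk1a, Upk2, Krt8 and Krt19 and below it for Krt18, and rosiglitazone libraries overlap DMSO in all 6 genes.

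Rosiglitazone alone gave 0 calls among the 6 tested genes, with 0 at an unadjusted p below 0.05, and limma called 0 of 14218 genes (0% of all), with 940 at an unadjusted p below 0.05, and 71 called without DMSO replicate 4; the authors' deposited table, made with DESeq2, has 61 genes at an adjusted p below 0.05, none of them among the 10. The 6 folds lay between -0.23 and 0.01, and the intervals at 95% for Krt19 and Krt18 were -0.18 to 0.20 and -0.14 to 0.15. Rosiglitazone on top of trametinib moved 2 genes, where 7.33% of genes were called, 3.18% higher and 4.15% lower. Krt8 was higher with the combination than with trametinib, at 0.18 ± 0.05 (adjusted p = 0.0203), and Krt7 lower, at -0.16 ± 0.04 (adjusted p = 0.0141). The Krt8 call was lost without trametinib replicate 3 or combination replicate 4. Krt7 had 37632, 36292, 36776, 37816 and 37295 with the combination, against 43987, 42934, 41478, 50427 and 44447 with DMSO, a fold of -0.26 ± 0.05 with no overlap; with trametinib alone it had -0.10 ± 0.05, called lower only without DMSO replicate 3 or 4. Under quantile scaling the trametinib fold of Krt7 turned to 0.15 and was called higher. For Krt19, Upk2 and Upk1a the combination minus trametinib was 0.00 ± 0.07, -0.03 ± 0.16 and 0.06 ± 0.15, with intervals of -0.15 to 0.15, -0.36 to 0.29 and -0.25 to 0.36. Whether rosiglitazone acted differently with trametinib than without was called for 0 of 6 genes by limma (1.91% of genes, 0.772% higher and 1.13% lower), with Krt7 and Krt8 at an unadjusted p below 0.05 (-0.14 ± 0.06 and 0.19 ± 0.07); Krt7 was called without DMSO replicate 4.

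Of the other groups, basal markers rose alongside Upk1a and Upk2 in the first experiment: with trametinib 4 of 4 tested were higher, with Krt14 at 2.80 ± 0.07, Krt17 at 2.53 ± 0.09 and Krt15 at 5.62 ± 0.25. Krt14 reached 12292 to 13765 normalised counts, against 1669 to 2277 with DMSO, while Krt5 was too low to be tested. In the second experiment the combination called 1 of 3 tested basal markers higher and 0 lower at 24 h, where 27.7% of genes were called higher and 27.2% lower. At 72 h it called 1 higher and 1 lower, where 34.4% and 35.1% of genes were. The median log2 fold change of these 3 was 0.27 at 24 h and -0.36 at 72 h. In the first experiment the combination had called 4 of 4 tested basal markers higher, at a median of 2.38, where 36.3% of genes were. The basal sum of the second experiment at 72 h was nonetheless 476 to 805 normalised counts with the combination, against 363 to 423 with DMSO. With trametinib in the first experiment the other lists were as follows. All 7 tested transport genes rose, led by Sytl2 (2.61 ± 0.07) and Mal (1.21 ± 0.04), and 10 of 13 barrier and surface genes, led by Sprr1a (5.18 ± 0.07) and Krt4 (3.72 ± 0.08), with 1 lower. Of 13 luminal transcription factors 6 rose, with Foxa1 at 0.79 ± 0.04 and Pparg at 0.77 ± 0.07, and 2 fell, Klf4 (-0.46 ± 0.05) and Grhl3 (-0.69 ± 0.08). Beside these list counts, trametinib called 71.1% of all genes, 35.8% higher and 35.3% lower, so that a call was common outside the lists too. Whether the calls in these lists mark a luminal response was not tested. Msln rose with trametinib by 1.65 ± 0.04, while the other mesothelial markers Lrrn4, Wt1 and Gpm6a did not pass 25.7, 10.7 and 1.05 in that table. The 6 fibroblast markers summed to 128 to 203 with trametinib, against 244 to 381 with DMSO, mostly Pdgfra, while Lum did not pass 1.15 and Col1a2 4.96. The 4 endothelial markers summed to 84.0 to 148, against 114 to 156, mostly Pecam1, and Emcn did not pass 1.01. The 7 leukocyte markers summed to 909 to 976 with trametinib, against 397 to 510 with DMSO. The part of these markers in the differences was not tested.

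Krt8 and Krt18 are neighbours on mouse chromosome 15: by the GENCODE M21 annotation, protein-coding Krt8 runs from 101996698 to 102004482 on the minus strand and Krt18 from 102028180 to 102032027 on the plus strand, with 23697 bases between them. Because this pair moved in opposite directions, the bases before their starts are shown, with those before Upk1a on chromosome 7, from the RefSeq promoter table (GRCm38.p6), which held 7 of the 10 genes. Each stretch stops at the first annotated exon. Capitals mark the nuclear receptor hexamer AGGTCA and the GATA motif AGATAA on either strand; also searched on both strands were TGTTTAC (FOXA), ACCGGT (GRHL), TGANTCA (AP-1), GGGCGG (SP) and a pair of AGGTCA copies 1 base apart.
Krt8, chr15:102004483-102004592, minus strand: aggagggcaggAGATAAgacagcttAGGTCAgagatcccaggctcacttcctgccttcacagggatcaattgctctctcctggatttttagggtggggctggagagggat
Krt18, chr15:102027966-102028179, plus strand: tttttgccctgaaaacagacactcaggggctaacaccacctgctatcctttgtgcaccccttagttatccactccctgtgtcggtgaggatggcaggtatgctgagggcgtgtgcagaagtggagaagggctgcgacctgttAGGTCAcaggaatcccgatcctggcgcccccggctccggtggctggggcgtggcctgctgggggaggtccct
Upk1a, chr7:30612848-30612984, minus strand: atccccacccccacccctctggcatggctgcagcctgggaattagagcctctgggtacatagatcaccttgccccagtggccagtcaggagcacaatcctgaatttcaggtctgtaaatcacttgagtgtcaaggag
The Krt8 stretch held 1 AGGTCA and 1 AGATAA, which do not overlap, the Krt18 stretch 1 AGGTCA, and the Upk1a stretch none of the motifs. Within the full 250 bases before each start, AGGTCA was found in 4 of the 7 genes (Upk3b, Krt8, Krt18 and Krt20) and in 14.0% of 32851 promoters, AGATAA in 3 (Upk3a, Krt8 and Krt20) and in 9.99%, and GGGCGG in 2 (Upk3a and Krt7) and in 32.7%. The paired hexamer and the FOXA, GRHL and AP-1 motifs were in none of the 7 windows, and in 0.0335%, 3.17%, 1.86% and 6.75% of all promoters.

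In the second experiment the combination was followed at 24 h and 72 h. It called 5 of 6 tested genes at 24 h, where 54.9% of genes were called (27.7% higher, 27.2% lower), and 6 of 6 at 72 h, where 69.4% were (34.4% higher, 35.1% lower). Upk1a and Upk2 passed the filter for low values mainly through the combination groups, so that their being tested is no evidence. Krt8 had 7341, 6205, 6448 and 6740 normalised counts with the combination at 24 h, against 4295, 3911 and 4154 with DMSO, and 7966, 6847, 7266 and 8091 at 72 h, against 4962, 5096 and 4379 with DMSO. The groups were apart at both times, with folds of 0.70 ± 0.11 and 0.65 ± 0.11. Krt7, its fellow type II keratin, was lower, at -0.55 ± 0.21 and -0.66 ± 0.21 (adjusted p = 0.0266 and 0.00623); the call at 24 h was lost without DMSO replicate 1 or 3 or combination replicate 2 or 3.

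Krt18 had 2381, 1897, 2013 and 1829 with the combination at 24 h, against 3150, 3176 and 3220 with DMSO. At 72 h it had 1417, 1338, 1389 and 1335 with the combination, against 4141, 4213 and 3613 with DMSO. The folds were -0.66 ± 0.14 and -1.54 ± 0.14, and the effect at 72 h minus that at 24 h was itself called, at -0.88 ± 0.20 (adjusted p = 0.00216, where 24.6% of genes were called, 11.9% higher and 12.7% lower). Krt19 had 7482, 5885, 6003 and 6201 with the combination at 24 h, against 3013, 2866 and 2971 with DMSO, and 5843, 4750, 4435 and 4109 at 72 h, against 1381, 1264 and 977 with DMSO. Its folds were 1.11 ± 0.15 and 1.99 ± 0.15, and the difference of 0.88 ± 0.21 was called (adjusted p = 0.00369). The level of Krt19 in DMSO libraries was lower at 72 h than at 24 h, by -1.30 ± 0.16 (adjusted p = 1.52e-05, where 13.6% of genes were called, 5.57% higher and 8.01% lower), so the larger fold at 72 h went with a lower level in treated cells too. Upk2 was the only other gene called between the DMSO groups, higher at 72 h by 1.47 ± 0.49 (adjusted p = 0.0448), a call lost without any DMSO library but replicate 2 of 24 h; without the 72 h ATRA replicate 1 in the fit, Krt7 and Krt18 were called higher as well (0.50 and 0.32). The ratio of Krt8 to Krt18 stood 1.35 ± 0.11 log2 units above the DMSO mean at 24 h and 2.19 ± 0.11 at 72 h (SD, n = 4 each).

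Uroplakin reads in the second experiment were few. Upk2 had 125 reads over the 4 combination libraries of 24 h, against 8 reads over 3 DMSO libraries, and at 72 h 92 reads against 50. In normalised counts it had 31.1, 15.3, 26.2 and 19.7 with the combination at 24 h, against 1.54, 7.92 and 0.885 with DMSO, and 25.6, 27.5, 17.3 and 14.2 at 72 h, against 7.84, 8.72 and 9.67. The groups did not overlap at either time, and the folds were 2.74 ± 0.46 and 1.14 ± 0.46 (adjusted p = 2.04e-05 and 0.0291); the call at 72 h was lost without DMSO replicate 1 or 2 or combination replicate 1 or 2. The difference of the folds between the times, -1.60 ± 0.65, was not called (adjusted p = 0.0727), and DMSO replicate 2 of 24 h decided it: without that library it was -2.27 and called. Upk1a was called at 72 h, at 1.31 ± 0.44 (50 reads over 4 combination libraries, against 30 over 3 with DMSO), though not without DMSO replicate 3. It had 0.35 ± 0.44 at 24 h, and the difference between the times was not called (0.95 ± 0.62). Upk1a and Upk2 passed the filter for low values mainly through the combination libraries, so their calls describe these values and lend no support. With no filter on low values the call of Upk2 at 72 h was lost and that of Upk1a was kept. Upk1b had 4 reads in the combination libraries of each time, 4 in the 72 h ATRA libraries, 0 in the 24 h ATRA libraries and 0 in the 6 DMSO libraries, where a count of 0 allows up to 3 reads. Upk3a, Upk3b and Krt20 had at most 5 reads in any group.

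**Figure D4:**
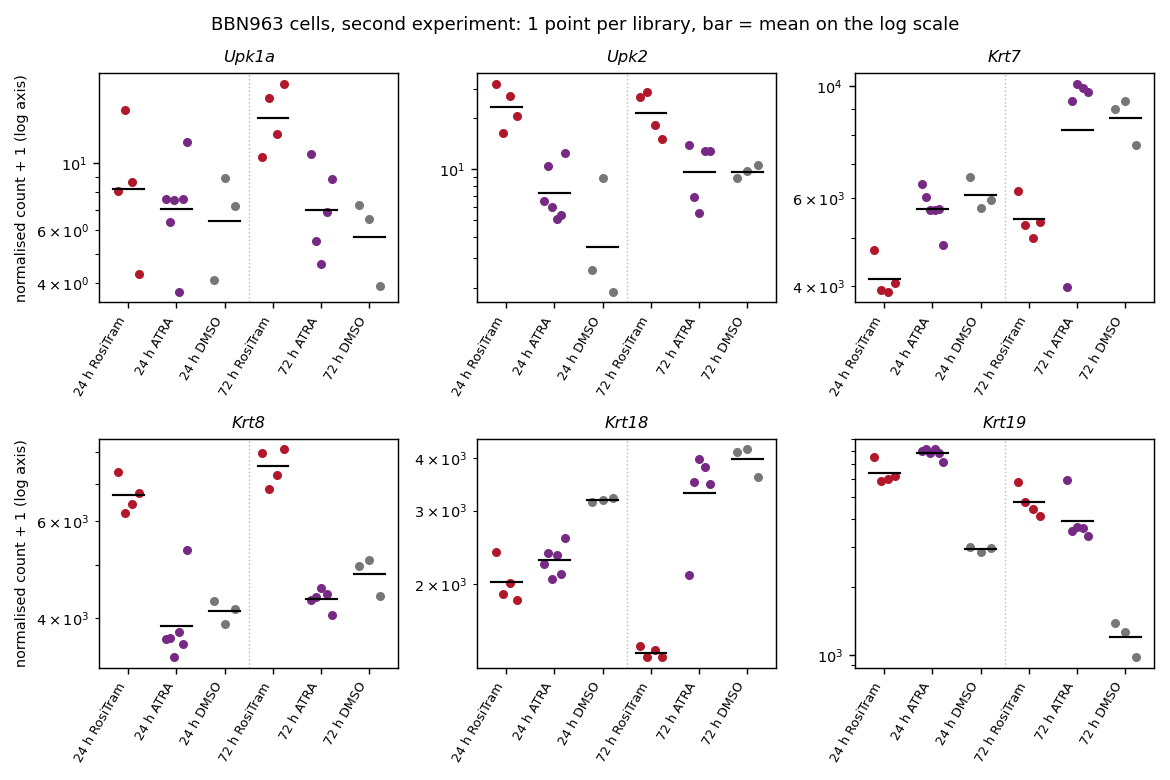
Normalised counts plus 1 on a log axis for the 6 tested genes in the second BBN963 experiment, 1 point per library, with bars at the mean on the log scale and the dotted line between 24 h and 72 h. Krt8 is raised by the combination and not by ATRA, Krt19 by both, and 1 library of the 72 h ATRA group stands apart from the others (Krt7 at 3982, against 9342 to 10102). For Krt7 it lies below the 24 h ATRA libraries (4834 to 6392) and within the range of the 24 h combination libraries (3901 to 4730).

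ATRA, a ligand of the retinoic acid receptors, raised Krt19, and no other keratin of the 4 tested was called higher. It called 2 of 6 tested genes at 24 h, where 25.4% of genes were called (12.5% higher, 12.9% lower), and 1 of 6 at 72 h, where 16.7% were (9.58% higher, 7.15% lower). Krt19 had a lowest value of 7158, a median of 7897 and a highest of 8154 normalised counts over the 6 ATRA libraries of 24 h, against 3013, 2866 and 2971 with DMSO. At 72 h it had 5951, 3520, 3688, 3628 and 3348 with ATRA, against 1381, 1264 and 977 with DMSO. Groups did not overlap at either time, and the folds were 1.41 ± 0.14 (adjusted p = 8.57e-08) and 1.72 ± 0.14 (adjusted p = 4.13e-09). Without ATRA replicate 1 the fold at 72 h was 1.57. Krt18 was lower by -0.48 ± 0.13 at 24 h (adjusted p = 0.00902) and had -0.27 ± 0.13 at 72 h, not called, and -0.11 without ATRA replicate 1. Krt8 had -0.09 ± 0.10 and -0.15 ± 0.10, with intervals at 95% of -0.29 to 0.11 and -0.36 to 0.06. Upk2 had 1.04 ± 0.42 and 0.00 ± 0.44, not called, except at 24 h when DMSO replicate 2 was left out.

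Set directly against ATRA, the combination called 3 of 6 genes at 24 h, where 42.7% of genes were called (21.1% higher, 21.6% lower). At 72 h it called 5 of 6, where 67.4% were (33.4% higher, 34% lower). The ATRA and combination comparisons above share their DMSO libraries. The ATRA and combination values were deposited separately, and whether they share 1 scale was not tested. Krt8 was higher with the combination by 0.79 ± 0.09 at both times, and Upk2 by 1.69 ± 0.39 and 1.14 ± 0.40. Krt7 was lower at both times (-0.46 ± 0.17 and -0.59 ± 0.18), a call lost at 24 h in 8 of 10 fits that leave out 1 compared library. Upk1a was higher at 72 h (1.01 ± 0.38), a call lost without ATRA replicate 2 or 3 or combination replicate 2 or 4. Because Upk1a and Upk2 passed the filter mainly through the combination libraries, their calls here lend no support either. Krt18 was lower with the combination at 72 h, by -1.27 ± 0.12 (adjusted p = 2.23e-09), and at 24 h by -0.17 ± 0.12 without being called. Krt19 had -0.30 ± 0.13 at 24 h and 0.27 ± 0.13 at 72 h, neither called. Without the 72 h ATRA replicate 1 both were called, at -0.30 (adjusted p = 0.00582) and 0.42 (adjusted p = 0.00034), and so was Krt18 at 24 h (adjusted p = 0.0382). The Krt19 call at 24 h was also made without ATRA replicate 6 or combination replicate 1 and in a fit of only the compared groups (adjusted p = 0.0035), and that at 72 h without combination replicate 4 and under quantile scaling (0.35, adjusted p = 0.0485). Among the other lists, ATRA raised 10 of 12 barrier and surface genes at 24 h and 9 at 72 h, led at 24 h by Sprr1a (3.69 ± 0.31), Krt4 (1.80 ± 0.18) and Cldn4 (0.89 ± 0.12). Of all genes, ATRA called 12.5% higher and 12.9% lower at 24 h, and 9.58% and 7.15% at 72 h. Of 3 tested basal markers ATRA lowered Krt14 and raised Krt15 at both times, with folds of -2.90 ± 0.29 and 1.55 ± 0.33 at 24 h and -2.41 ± 0.30 and 1.77 ± 0.34 at 72 h, and Krt17 had -0.43 ± 0.23 at 24 h, not called, and rose at 72 h (0.76 ± 0.24). Krt14 was at 32.1 to 58.3 normalised counts with ATRA at 24 h, against 320 to 361 with DMSO, while with the combination it was at 310 to 353.

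Side by side over the study, Krt19 was the member called most widely. It was higher with the combination in tumours at both times and in both cell experiments, with trametinib and with ATRA. With rosiglitazone alone it was not called. The tumour call of Krt19 at 5 days was lost in 6 of 8 fits that left libraries out (limma adjusted p up to 0.105). It was also lost with no filter on low values. Krt18 was lower in every comparison of trametinib or the combination with DMSO in cells. In treated against vehicle tumours it had positive folds, 0.94 ± 0.29 at 5 days and 0.93 ± 0.49 at 1 month, that were not called. The fold at 1 month was 0.17 without vehicle replicate 2. Krt7 was called higher in tumours of 1 month and lower with the combination in cells in all 3 comparisons with DMSO. The tumour call of Krt7 was lost in 5 of 7 fits that left 1 library out. Under quantile scaling the calls in cells were lost in the first experiment (-0.01, adjusted p = 0.821) and at 24 h in the second (-0.33, adjusted p = 0.112), and that at 24 h was also lost with no filter on low values (adjusted p = 0.0912). Tissue and cells were not set against each other in a test.

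**Figure D5:**
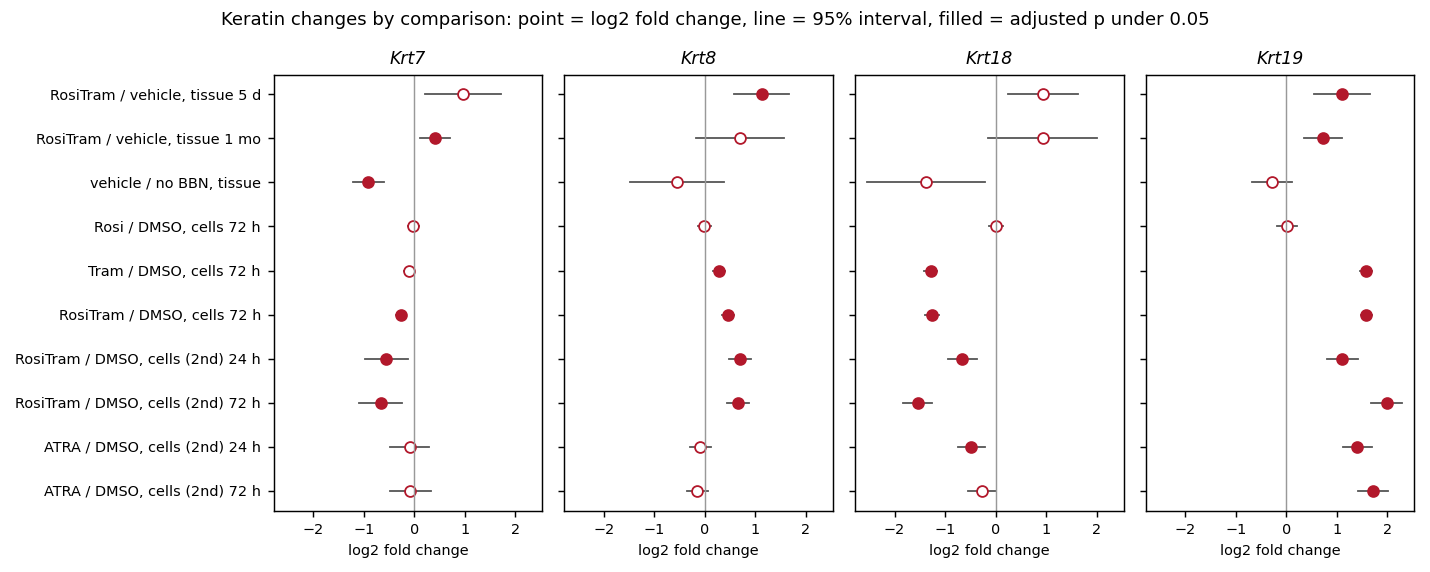
Log2 fold change (points) with 95% intervals (lines) of Krt7, Krt8, Krt18 and Krt19 in 10 comparisons, each named with the treated or tumour group over its control; filled points have an adjusted p below 0.05. Krt19 is called higher in all comparisons of a treated group with its control but that of rosiglitazone alone (0.01), and Krt18 lies left of 0 in cells with trametinib (-1.29), right of it in treated against vehicle tumours (0.94 and 0.93, not called) and left of it in vehicle tumours against no BBN (-1.38, not called). Without vehicle replicate 2 of 1 month the last 2 of these Krt18 folds are 0.17 and -0.62.

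Genes were ranked by nearness to each keratin in the pattern of log2 fold changes over the same 10 comparisons, among 12230 genes. The nearest of so many genes lies far below the median in any case. The distances here and below are thus a description and no test of likeness. Nearest to Krt19 were Tmie, Rarb and Lynx1, at root-mean-square differences of 0.29, 0.41 and 0.42, where the median gene was at 1.36. Rarb encodes a retinoic acid receptor. Nearest to Krt8 were Fam83f, Rassf7 and Rida (0.15 to 0.19, median 0.72), to Krt18 Mast4, Zfp184 and Gpsm2 (0.21 to 0.28, median 1.09) and to Krt7 Suclg2, Mpzl2 and Bag2 (0.11 to 0.15, median 0.69). Of these 10 comparisons 2 hold the 1-month vehicle libraries, and cell comparisons of the same experiment and time share DMSO libraries. Without vehicle replicate 2 the Krt18 folds were 0.17 and -0.62, in place of 0.93 and -1.38. The nearest genes of the keratins were not sought without that library. For the uroplakins the pattern covered only the 3 tissue comparisons with a control, over 16620 genes, and 2 of these share the 1-month vehicle libraries. There Tjp1, a tight junction scaffold, was nearest to Upk2 (0.04, median 1.19), Crb3 to Upk1b (0.02, median 0.89), Prss8 to Upk3b (0.04, median 1.04), Wfikkn1 to Upk3a (0.06, median 1.75) and Ptprt to Upk1a (0.09, median 2.10). These neighbours rest on vehicle replicate 2: without it, the nearest genes were Col5a2 for Upk2 (0.03, median 0.70), Sema3e for Upk1b (0.04, median 0.77), Sox6 for Upk3b (0.01, median 0.74), Tmem170 for Upk3a (0.04, median 0.62) and Fn3krp for Upk1a (0.11, median 0.96).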

How the data were processed

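Poly-A RNA had been sequenced from 17 tissue and 45 cell libraries. Per the submitters' processing notes, the tools were bcl2fastq 2.19, kallisto 0.44.0 and DESeq2, with the builds GRCm38.p6 and mm10. The deposited tables hold normalised counts, here treated as signal values that sum per library to 25426229 to 73948118 in tissue, 36683752 to 42795826 in the first cell experiment and 7554903 to 8556073 in the second, and the authors' log2 fold changes and p-values. The depth of the tissue libraries and of the first cell experiment is unknown; in the second cell experiment whole reads could be recovered (100% of values within 0.1 of a whole read), giving 4643410 to 29450743 reads.

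In the deposited rosiglitazone results, values of 1655 rows were shifted, of which 1632 were realigned by their mean and 23 left out, none a member. Log2(value + 1) was tested with limma 3.58.1 (trend, robust) in R 4.3.3 for genes reaching 10 in at least the number of libraries that the smallest group has, with Benjamini-Hochberg adjustment over all genes tested. The 3 tables of the first cell experiment were joined through their DMSO libraries to set the combination against trametinib. In the second experiment the ATRA and combination libraries were deposited in separate comparisons that list the same DMSO libraries. Their values were put together as they stood, with the DMSO values of the ATRA comparison. The code was tested on simulated data. All 10 members were named, and from other lists up to 3 called genes with the lowest adjusted p per comparison described. The members and lists were chosen with earlier results of these data known. Alternatives were another scaling, pseudocount, filter or set of samples, leaving out each library, and edgeR 4.0.16 and DESeq2 1.42.0 on the recovered counts.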

Additional observations from a re-analysis of the deposited data

Results flagged for a closer look

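Among 68 sets of 4 to 6 libraries, 1 per member and group, 11 held a library far from the rest, where chance gives about 1 in 20. In tissue these were Upk3a in treated replicate 4 of 1 month, at 30259 normalised counts, against 92066 to 115267 in the others; Upk2 in treated replicate 2 of 5 days, at 310, against 2516 to 3469; and Krt8 in treated replicate 4 of 5 days, at 10964, against 13990 to 14418. In the first cell experiment, replicate 3 of rosiglitazone was highest for Krt7 (49441) and Krt19 (15615), and DMSO replicate 4 for Krt18 (25235). In the second, ATRA replicate 6 of 24 h was highest for Krt8 (5324) and lowest for Krt19 (7158). The 72 h ATRA replicate 1 was lowest for Krt7 (3982, against 9342 to 10102) and Krt18 (2106, against 3479 to 3980) and highest for Krt19 (5951, against 3348 to 3688).

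The effect of the combination in cells differed between 72 h and 24 h for Krt18, by -0.88, and for Krt19, by 0.88, in a test of the difference itself.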

How the results depend on the processing

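No paired analysis was possible because the labels give no replicate numbers shared across groups. Counts are of the 10 genes called, by limma unless named, and the cause of each change below was not tested. For treated against vehicle tumours of 1 month the count of 2 was 1 in a fit of only the compared groups and 1 from the table that holds these groups alone, with Krt7 lost each time. For treated tumours of 1 month against no BBN the count of 0 was 1 under quantile scaling (Krt19) and 1 with only the compared groups (Krt7). At 5 days the count of 2 was 4 under quantile scaling and 0 with no filter on low values. For the combination against trametinib the count of 2 was 1 with no filter, and for the interaction the count of 0 was 2 under quantile scaling (Krt7 and Krt8). For the combination against ATRA at 72 h the count of 5 was 3 with only the compared groups. For DMSO at 72 h against 24 h the count of 2 was 1 with a pseudocount of 4, with no filter, by edgeR and by DESeq2, each without Upk2. Under quantile scaling Krt7 with trametinib reversed, to 0.15 in place of -0.10.

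With 1 library left out, the counts ranged from 1 to 2 (1 month), 1 to 2 (vehicle against no BBN), 0 to 1 (treated against no BBN), 0 to 4 (5 days), 5 to 6 (trametinib), 1 to 2 (combination against trametinib), 0 to 1 (interaction), 4 to 5 and 5 to 6 (combination at 24 h and 72 h in the second experiment), 2 to 3 (ATRA at 24 h), 2 to 5 and 4 to 6 (combination against ATRA), 2 to 3 (combination at 72 h minus 24 h) and 1 to 4 (DMSO). They stayed at 0 for 1 month minus 5 days and for rosiglitazone, at 6 for the combination in the first experiment and at 1 for ATRA at 72 h. Fits without the 72 h ATRA replicate 1 where it was not compared, without replicate 2 of both 5-day groups, and without vehicle replicate 2 for treated against no BBN were added after the data were seen, as were the spread and nearest genes of the uroplakins without those tissue libraries.

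Over all genes, calls changed by more than 1.5 times for treated tumours against no BBN (753, with 174 unfiltered and 1407 in a fit of only the compared groups), 5 days (1043, 567 unfiltered), 1 month minus 5 days (1, with 15 under quantile scaling, 4 with a pseudocount of 4 and 25 unfiltered), rosiglitazone (0, 4 unfiltered), the combination against trametinib (1073, 680 unfiltered and 2019 with the compared groups), the interaction (279, 184 unfiltered), ATRA at 72 h (2344, 731 with the compared groups) and DMSO (1904, 1161 unfiltered and 3229 with the compared groups). Leaving out 1 library moved these counts by more than 1.5 times for treated tumours against no BBN (136 without no-BBN replicate 2 to 1583 without vehicle replicate 2), vehicle tumours against no BBN (4946, down to 3217 without no-BBN replicate 2), 5 days (428 without vehicle replicate 1 to 1001, and for genes called higher 9 without vehicle replicate 3, in place of 118), 1 month minus 5 days (0 to 126, the highest without vehicle replicate 2 of 1 month), rosiglitazone (0 to 71), the interaction (180 without DMSO replicate 5 to 1221 without DMSO replicate 4), ATRA at 24 h (3554, down to 2129 without DMSO replicate 1), ATRA at 72 h (down to 1326 without DMSO replicate 1) and DMSO (924 without 72 h replicate 1 to 3391 without the 72 h ATRA replicate 1). The shares of all genes printed beside the 10 genes move with them. Quantile scaling turned the split of vehicle tumours against no BBN to 2373 higher and 2919 lower, in place of 2816 and 2130. The uroplakin values in cells rest on few reads, and the depth of the tissue libraries is not known.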
